A study of Mus musculus with 24 samples.

Results

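The lysosome and autophagy genes described here are 37 genes chosen by symbol, of the 55385 Ensembl genes in each of 6 tables of expression. They cover the MiT transcription factors and their regulator folliculin, proteins of the lysosomal membrane, lysosomal hydrolases and their cofactors, subunits of the vacuolar proton pump (V-ATPase), and the autophagy machinery. All 37 matched a row in every table, and 36 of the 37 were expressed strongly enough to be tested in each. A wider set of 114 genes of the same organelles and of mTORC1 nutrient sensing was read beside them. Both sets were chosen with earlier results of these data known, so that their shares beside those of all genes are description only.

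RNA of mouse embryonic stem cells (ESCs) in naive 2i/LIF culture was sequenced in 24 libraries, 2 for each of 12 groups, to ask how quiescent ESCs differ from cycling ones. Spontaneous quiescent ESCs (qESCs) were the cells sorted for the lowest mitochondrial membrane potential (ΔΨm) by the dye TMRM, and were compared with the cells of highest potential. The other tables compared cells given etomoxir, a fatty acid oxidation inhibitor (FAOi), with cells given water, cells given a MYC inhibitor (MYCi) with cells given DMSO, and cells with Mat2a siRNA (siMat2a) with cells given control siRNA (siCtr). The last tables compared Eed-null (EedKO) with heterozygous (Het, Eed fl/-) lines, and low-ΔΨm cells given 25 µM SAM (S-adenosylmethionine) with those given 50 µM. Both Eed lines carry at least 1 disrupted Eed allele, made with a Cre active in the male germ line, and came from 129/S1 embryos plated on feeder fibroblasts, so that the Het cells are not wild type. The sorted groups are the extremes of a culture, and the SAM table holds no library without SAM, so that it compares doses only.

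Lysosomes break down proteins, lipids and sugars with hydrolases that work in an acid interior, and autophagy delivers the cell's own contents to them. TFEB, TFE3 and MITF are related transcription factors that turn on many lysosomal and autophagy genes through a short palindromic DNA element. When nutrients are plentiful, mTORC1 at the lysosome surface, with folliculin, holds these factors in the cytoplasm, and in naive ESCs the release of TFE3 into the nucleus is known to oppose exit from the naive state. Most of this control acts on where the proteins are, which RNA levels do not show.

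That element holds the letters CACGTG, in its longer form TCACGTGA, which read the same on both strands. RefSeq promoter windows of GRCm38.p6, from 250 bases before to 50 bases after the start of transcription, were matched by symbol for 32 of the 37 members, with 39 windows. CACGTG stood in 11 of these 39 windows (28.2%), against 7.15% of all 32851 windows of the same length. TCACGTGA stood in 6 member windows (15.4%), against 0.974% of all windows. The 6 windows with TCACGTGA are printed here because they belong to members of 3 roles whose levels are followed throughout: 2 subunits of the proton pump (Atp6v0d1, Atp6v1a), 3 hydrolases (Ctsa, Ctsd, Gla) and the calcium channel of the lysosome (Mcoln1). The window of Gpnmb, the member with the largest increases, is given for contrast and holds no CACGTG. Capitals mark CACGTG or TCACGTGA, and each sequence runs from 5′ to 3′ along the strand of its gene.
Atp6v0d1, chr8:105566015-105566314, minus strand: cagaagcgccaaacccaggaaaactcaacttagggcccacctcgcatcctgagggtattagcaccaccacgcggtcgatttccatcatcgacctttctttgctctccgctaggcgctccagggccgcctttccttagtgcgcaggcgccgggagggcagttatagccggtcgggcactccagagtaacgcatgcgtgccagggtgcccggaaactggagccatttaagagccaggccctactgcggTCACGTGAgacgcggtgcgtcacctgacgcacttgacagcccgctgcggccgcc
Atp6v1a, chr16:44139210-44139509, minus strand: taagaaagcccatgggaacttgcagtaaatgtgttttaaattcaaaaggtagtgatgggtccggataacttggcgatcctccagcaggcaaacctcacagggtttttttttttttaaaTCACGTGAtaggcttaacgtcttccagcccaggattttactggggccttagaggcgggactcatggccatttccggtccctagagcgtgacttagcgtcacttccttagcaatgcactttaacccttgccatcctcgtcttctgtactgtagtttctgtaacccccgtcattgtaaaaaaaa
Ctsa, chr2:164833523-164833822, plus strand: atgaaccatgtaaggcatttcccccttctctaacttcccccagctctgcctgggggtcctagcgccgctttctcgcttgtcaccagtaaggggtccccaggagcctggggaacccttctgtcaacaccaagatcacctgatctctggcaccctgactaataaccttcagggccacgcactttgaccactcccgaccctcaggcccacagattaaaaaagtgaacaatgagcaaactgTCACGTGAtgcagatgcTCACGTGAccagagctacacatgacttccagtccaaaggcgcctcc
Ctsd, chr7:142387778-142388077, minus strand: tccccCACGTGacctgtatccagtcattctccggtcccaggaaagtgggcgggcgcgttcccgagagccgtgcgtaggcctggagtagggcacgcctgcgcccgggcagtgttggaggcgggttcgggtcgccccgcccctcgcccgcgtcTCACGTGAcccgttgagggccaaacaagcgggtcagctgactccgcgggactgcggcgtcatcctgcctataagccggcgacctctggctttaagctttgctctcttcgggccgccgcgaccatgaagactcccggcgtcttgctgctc
Gla, chrX:134600956-134601255, minus strand: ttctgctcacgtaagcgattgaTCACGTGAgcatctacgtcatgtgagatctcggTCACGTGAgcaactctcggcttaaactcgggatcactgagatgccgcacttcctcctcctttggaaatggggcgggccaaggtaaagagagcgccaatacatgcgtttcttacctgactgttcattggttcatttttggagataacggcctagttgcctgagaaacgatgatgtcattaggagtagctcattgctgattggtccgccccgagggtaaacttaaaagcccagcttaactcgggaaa
Mcoln1, chr8:3500269-3500568, plus strand: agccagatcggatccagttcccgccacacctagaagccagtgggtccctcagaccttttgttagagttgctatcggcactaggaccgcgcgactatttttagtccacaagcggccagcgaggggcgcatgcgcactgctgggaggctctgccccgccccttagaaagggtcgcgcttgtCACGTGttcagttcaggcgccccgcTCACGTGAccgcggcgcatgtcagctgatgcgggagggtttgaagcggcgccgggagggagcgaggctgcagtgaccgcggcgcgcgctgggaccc
Gpnmb, chr6:49036268-49036567, plus strand: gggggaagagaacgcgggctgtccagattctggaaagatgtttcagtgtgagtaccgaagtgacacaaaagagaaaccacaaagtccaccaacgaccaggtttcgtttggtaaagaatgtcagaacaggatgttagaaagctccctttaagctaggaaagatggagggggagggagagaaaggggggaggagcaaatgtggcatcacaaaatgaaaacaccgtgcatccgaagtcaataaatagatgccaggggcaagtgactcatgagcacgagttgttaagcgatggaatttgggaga

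The element lies 4 bases before the start in Atp6v0d1, 132 in Atp6v1a, 46 in Mcoln1 and 99 in Ctsd, counted from its first letter. Ctsa and Gla each hold 2 copies. The other members with CACGTG are Atg5, Atg7, Ctsl, Glb1 and Lamp1, and Lamp1 holds 4 copies of it. Such a match is a run of letters and no measurement of binding, and its absence from a window says nothing of the factors.

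Values are FPKM (fragments scaled for the length of a gene and the depth of a library), so that levels of different genes can be set side by side. In the siMat2a, FAOi and MYCi tables the deposited values of genes as a whole were lower in the treated libraries: the median log2 fold change of all tested genes was -0.63, -0.66 and -0.65, and it was -0.40 in the SAM, 0.037 in the sorted and 0.11 in the Eed table. Each library was therefore divided by its median ratio to the other libraries of the table, which brought the median fold to between -0.0071 and 0.048. Levels and folds below are on this scaled FPKM unless called deposited, and "rose" or "fell" means relative to the median gene with an adjusted p under 0.05 by limma over all genes tested. Where a role is given without members called in a direction, at most 2 of its members had an unadjusted p under 0.05 in that direction. With 2 libraries per group, a called change nearly always means groups that do not overlap. Statements of no overlap below describe the values and add no evidence. In bulk RNA, fewer cells of a type and less RNA per cell cannot be told apart.

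The libraries hold an estimated 27.2 to 64.2 M fragments over genes. Mat2a, which makes SAM, stood at 36.5 and 35.1 FPKM with siCtr and 14.5 and 14.7 with siMat2a, and Eed, a core subunit of the Polycomb complex PRC2, at 12.2 and 11.7 in the Het and 2.82 and 2.44 in the Eed-null libraries, both in the direction of their labels. Naive markers were present in every library, with none of 8 at 0. Summed macrophage markers, which in 8 genes include the lysosomal protein Cd68, ranged from 4.65 to 24.4 FPKM over all libraries. Summed fibroblast markers ranged from 0.58 to 2.56 FPKM outside the Eed lines and from 8.13 to 9.55 in them.

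In the high-ΔΨm libraries the members ran from Gpnmb at 0.0638 and 0.0866 FPKM to Lamp1, a major glycoprotein of the lysosomal membrane, at 94.2 and 98.5. Atp6v0d2, a pump subunit of osteoclasts and macrophages, was listed at 0 or under 0.1 FPKM in every library and was not tested. Among the MiT factors, Tfe3 (6.93 and 6.74 FPKM), Tfeb (5.52 and 6.004) and Mitf (5.17 and 5.19) lay close together in these cells.

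**Figure D1:**
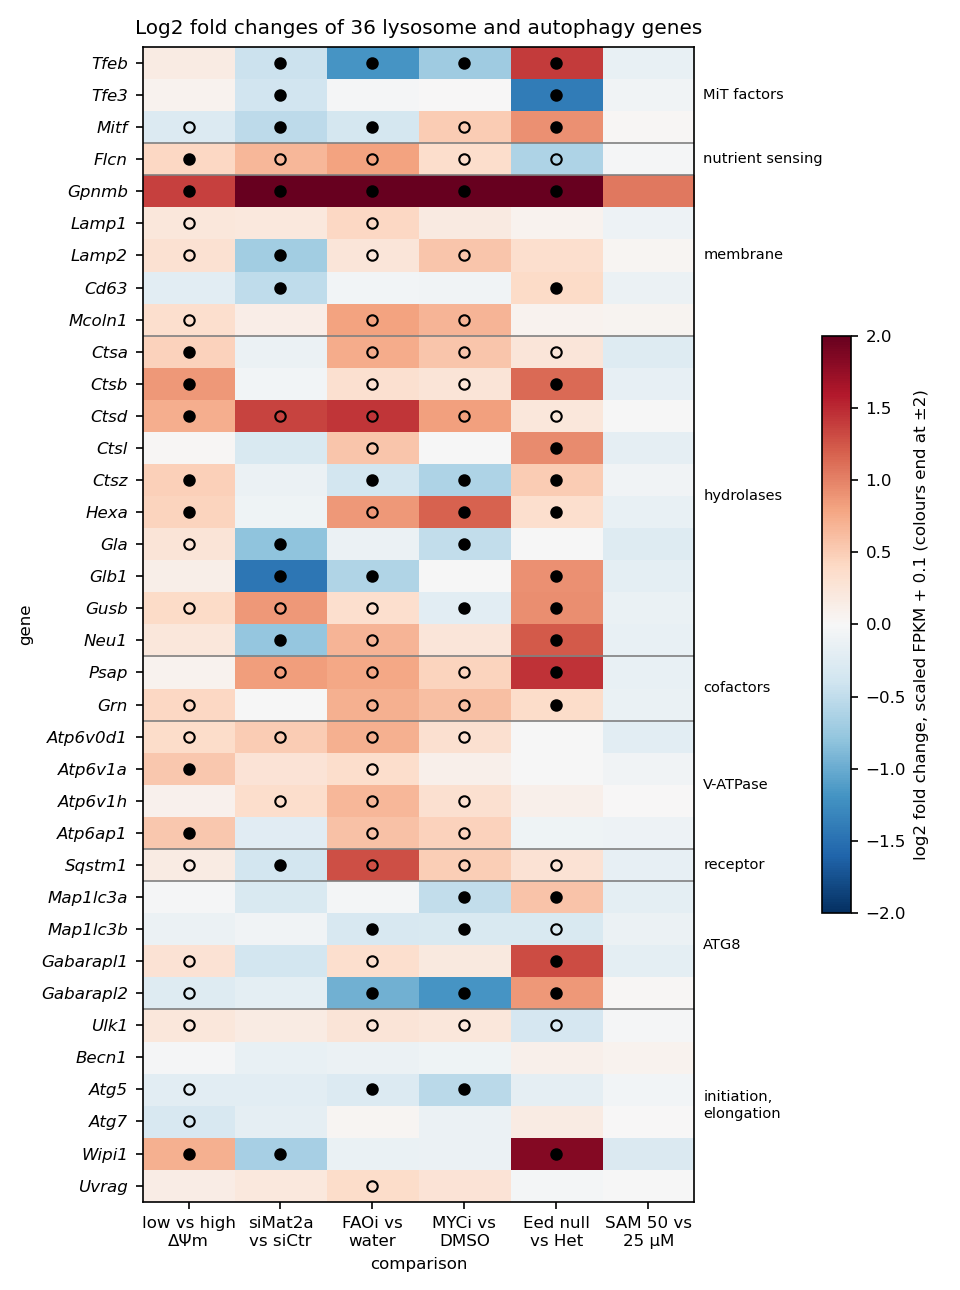
Each row is one of the 36 tested members, ordered by role, and each column a comparison. Colour gives the log2 fold change of scaled FPKM (red higher, blue lower in the first-named group), circles mark an adjusted p under 0.05, and filled circles mark members that pass in the same direction on the deposited scale. Gpnmb and Ctsd carry a circle in the first 5 columns, no member does in the SAM column, and the open circles in the siMat2a, FAOi and MYCi columns are rises that did not pass as rises on the deposited scale.

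In spontaneous qESCs, genes of lysosomal hydrolases and membrane proteins were mostly higher than in the high-ΔΨm cells, and 4 members of autophagy and MiT function were lower. Of the 36 members, 20 rose (55.6%) and 4 fell (11.1%), while of all genes tested 19.4% rose and 17% fell, and of those with a mean of at least 1 FPKM 21.2% rose and 22.7% fell. The median log2 fold change was 0.23 over members and -0.0071 over all genes. On the deposited scale 10 members rose and 0 fell, beside 2948 and 1360 of all 21086 genes. There, 0 members were lower at an unadjusted p under 0.05. With libraries scaled by their ERCC spike-in rows, 4 rose (Gpnmb, Ctsb, Ctsd and Wipi1) and 0 fell, at a member median of 0.32. Without low-ΔΨm replicate 1 or 2 the risen members numbered 11 and 9, without high-ΔΨm replicate 1 or 2 they numbered 18 and 17, and the fallen ones were then 0 or 1.

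Of the 10 hydrolases, 7 rose (5 as deposited), against 19.4% of all genes on the scaled values. Ctsb, a cysteine protease, stood at 15.4 and 14.8 FPKM in the high-ΔΨm and 27.8 and 27.7 in the low-ΔΨm libraries (log2 fold change of 0.87, SE 0.034, adjusted p = 0.000976, deposited 0.92, past the threshold too). The high-ΔΨm libraries had 41.8 and 41.9 FPKM of Ctsd, the main aspartic protease of lysosomes, and the low-ΔΨm libraries 68.1 and 69.9 (log2 fold change of 0.72, SE 0.034, adjusted p = 0.00133, deposited 0.77, past the threshold too). In both genes the 2 low-ΔΨm libraries lay far above the high-ΔΨm ones. The other risen hydrolases were Ctsa (0.46, deposited 0.51), Ctsz (0.48, deposited 0.53), Hexa (0.44, deposited 0.49), Gusb (0.39, deposited 0.43) and Gla (0.26, deposited 0.30). Ctsl, Glb1 and Neu1 had log2 fold changes of 0.018, 0.11 and 0.23 and did not pass. Grn, progranulin, which is cut into peptides within lysosomes, rose (0.41, deposited 0.46), and Psap, at 0.063, did not pass.

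Of the 4 tested V-ATPase genes, 3 rose (2 as deposited). Atp6v1a, the catalytic subunit, measured 30.8 and 30.5 FPKM in the low-ΔΨm libraries, against 21.02 and 21.2 in the high-ΔΨm libraries (log2 fold change of 0.54, SE 0.030, adjusted p = 0.00174, deposited 0.58, past the threshold too). Atp6ap1, an accessory subunit, went from 14.4 and 13.5 FPKM with high ΔΨm to 19.99 and 20.5 with low ΔΨm (log2 fold change of 0.53, SE 0.046, adjusted p = 0.00409, deposited 0.58, past the threshold too). Atp6v0d1, of the membrane sector, followed (0.36, deposited 0.41), and Atp6v1h had 0.080 and did not pass. In none of the 3 risen genes did the groups overlap. Of 14 further V-ATPase genes in the wider set 5 rose, 0 of them as deposited, with a median of 0.11, while 19.4% of all genes rose.

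Of the membrane proteins, 4 of 5 rose (1 as deposited), against 19.4% of all genes on the scaled values. Gpnmb, a glycoprotein of melanosomes and lysosomes, stood at 0.0638 and 0.0866 FPKM in the high-ΔΨm and 0.348 and 0.351 in the low-ΔΨm libraries, higher by 1.36 on the log2 scale (SE 0.15, adjusted p = 0.0066) and past the threshold as deposited too (1.39). These levels rest on about 25 and 28 against 140 and 94 fragments. Mcoln1, the calcium channel TRPML1, and the structural proteins Lamp2 and Lamp1 rose less, by 0.34, 0.31 and 0.22, and did not pass on the deposited scale. Cd63, a tetraspanin of late endosomes, had -0.21 and did not pass.

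Autophagy genes were mixed. Wipi1, which binds the lipid of forming autophagosomes, stood at 0.704 and 0.613 FPKM in the high-ΔΨm and 1.12 and 1.16 in the low-ΔΨm libraries (log2 fold change of 0.71, SE 0.0995, adjusted p = 0.0112, deposited 0.75, past the threshold too). The kinase gene Ulk1, which starts autophagy, rose (0.22, deposited 0.27), as did the ATG8 gene Gabarapl1 (0.29, deposited 0.34) and the receptor gene Sqstm1, which encodes p62 (0.16, deposited 0.21).

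Of the 4 members that fell, 3 are autophagy genes as well. The high-ΔΨm libraries had 1.87 and 1.82 FPKM of Atg7, the enzyme that activates ATG8 proteins, and the low-ΔΨm libraries 1.42 and 1.48 (log2 fold change of -0.33, SE 0.062, adjusted p = 0.0217, deposited -0.28, not past it). Gabarapl2, an ATG8 protein, measured 13.3 and 12.1 FPKM in the low-ΔΨm libraries, against 15.2 and 15.3 in the high-ΔΨm libraries (log2 fold change of -0.26, SE 0.054, adjusted p = 0.0265, deposited -0.22, not past it). Atg5, which helps to attach ATG8 proteins to membranes, went from 8.802 and 8.96 FPKM with high ΔΨm to 7.69 and 7.57 with low ΔΨm (log2 fold change of -0.22, SE 0.034, adjusted p = 0.0148, deposited -0.17, not past it). Each of the 3 was lower in both low-ΔΨm libraries, by under 1.5-fold. The fourth was Mitf, described with the other MiT factors below.

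Of the wider set, 47 of 109 tested genes rose and 11 fell, against 19.4% and 17% of all genes. As deposited, 21 rose and 1 fell, beside 2948 and 1360 of all 21086 genes. Cd68, a glycoprotein of endosomes and lysosomes, went from 4.11 ± 0.295 to 8.84 ± 0.713 FPKM (mean ± SD, n = 2; log2 fold change of 1.09, deposited 1.13) and Gaa, the glycogen-degrading acid glucosidase, from 8.39 ± 0.218 to 16.9 ± 0.8197 (0.9999, deposited 1.05). The next rises were the mannosidase gene Man2b1 (0.79, deposited 0.84) and Scarb2, which carries glucocerebrosidase to lysosomes (0.78, deposited 0.83). The protease gene Ctsc went the other way, from 7.86 ± 0.127 to 3.903 ± 0.00848 FPKM (-0.99, deposited -0.94), followed by Wdr45 (-0.46, deposited -0.42), Gm2a (-0.44, deposited -0.39) and Atg101 (-0.34, deposited -0.29). Summed macrophage markers were 5.02 and 4.65 in the high-ΔΨm and 10.3 and 9.18 in the low-ΔΨm libraries, most of it Cd68, and melanocyte markers 3.24 and 2.27 in the high-ΔΨm and 6.36 and 6.58 in the low-ΔΨm libraries. Naive ESC markers summed to 706 and 741 in the high-ΔΨm and 820.2 and 815 in the low-ΔΨm libraries, with 4 of 8 higher (1 as deposited). The macrophage gene Csf1r stood at 0.6396 and 0.584 FPKM in the high-ΔΨm and 0.6697 and 0.653 in the low-ΔΨm libraries, and 3 or 4 of the 8 macrophage markers were at 0. The Y-linked gene Ddx3y also differed, at 2.76 and 2.73 against 8.68 and 8.41 FPKM. The part of these in the lysosomal result was not tested.

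With FAOi, 7 of 10 acid hydrolases, 4 of 5 membrane proteins and the receptor gene Sqstm1 rose relative to the median gene, Gpnmb rose 101-fold, and Tfeb and 2 ATG8 genes fell. Of the 36 members, 22 rose (61.1%) and 7 fell (19.4%), against 30.9% and 31.2% of all genes, and 27.1% and 44.6% of those with a mean of at least 1 FPKM. Member and all-gene medians were 0.33 and 0.048. On the deposited scale 1 member, Gpnmb, rose and 14 fell, beside 3524 and 13053 of all 25421 genes. Most of the rises below are thus rises against the median gene and not in deposited FPKM. With no filter on low values 14 rose and 7 fell. Without FAOi replicate 1 or 2 the fallen members numbered 4.

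Gpnmb stood at 0.594 and 0.439 FPKM in the water and 52.9 and 51.7 in the FAOi libraries (log2 fold change of 6.42, SE 0.13, adjusted p = 0.000278, deposited 5.69, past the threshold too). About 219 and 152 fragments in the water libraries became 17717 and 19030. Nothing else in the set moved as far. The water libraries had 45.2 and 49.8 FPKM of Ctsd and the FAOi libraries 131 and 126 (log2 fold change of 1.43, SE 0.077, adjusted p = 0.000463, deposited 0.64, not past it). Sqstm1 measured 115 and 121 FPKM in the FAOi libraries, against 46.3 and 50.1 in the water libraries (log2 fold change of 1.29, SE 0.074, adjusted p = 0.000502, deposited 0.50, not past it). Hexa, a subunit of the hexosaminidase that degrades gangliosides, went from 25.9 and 29.97 FPKM with water to 51.9 and 50.4 with FAOi (log2 fold change of 0.87, SE 0.086, adjusted p = 0.00153, deposited 0.082, not past it). In each of these genes the lowest FAOi library lay well above the highest water library on the scaled values. Mcoln1 stood at 6.69 and 7.16 FPKM in the water and 12.5 and 11.8 in the FAOi libraries (log2 fold change of 0.81, SE 0.063, adjusted p = 0.00089, deposited 0.020, not past it).

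By role, all 4 tested V-ATPase genes rose with FAOi on the scaled values (0 as deposited), against 30.9% of all genes. They were Atp6v0d1 (0.71, deposited -0.081), Atp6v1h (0.67, deposited -0.11), Atp6ap1 (0.59, deposited -0.20) and Atp6v1a (0.35, deposited -0.45). Of the 14 further V-ATPase genes 5 rose and 0 fell, against 30.9% and 31.2% of all genes, with a median of 0.083. As deposited 0 rose and 8 fell, beside 3524 and 13053 of all 25421 genes. Both cofactors rose, Psap (0.78, deposited -0.015) and Grn (0.71, deposited -0.089). The remaining risen hydrolases were Ctsa (0.75, deposited -0.045), Neu1 (0.68, deposited -0.10), Ctsl (0.55, deposited -0.24), Gusb (0.34, deposited -0.45) and Ctsb (0.32, deposited -0.47), and the remaining membrane proteins Lamp1 (0.41, deposited -0.38) and Lamp2 (0.24, deposited -0.55). In autophagy, Uvrag (0.37, deposited -0.41), Gabarapl1 (0.33, deposited -0.45) and Ulk1 (0.27, deposited -0.53) rose.

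The 7 members that fell with FAOi did so on both scales. The water libraries had 23.8 and 26.5 FPKM of Gabarapl2 and the FAOi libraries 13.3 and 12.6 (log2 fold change of -0.95, SE 0.074, adjusted p = 0.000866, deposited -1.74, past the threshold too). Glb1, the lysosomal beta-galactosidase, measured 17.4 and 16.8 FPKM in the FAOi libraries, against 24.6 and 27.4 in the water libraries (log2 fold change of -0.60, SE 0.070, adjusted p = 0.00247, deposited -1.39, past the threshold too). Ctsz, a cysteine carboxypeptidase, went from 20.6 and 23.7 FPKM with water to 15.9 and 18.2 with FAOi (log2 fold change of -0.37, SE 0.10, adjusted p = 0.0295, deposited -1.16, past the threshold too). The ratio of means for Gabarapl2 was 0.514 on the scaled values. Map1lc3b, the LC3B gene, and Atg5 fell less, Map1lc3b (-0.32, deposited -1.104) and Atg5 (-0.27, deposited -1.06), and the other two were Tfeb and Mitf. Cd63 (-0.055, deposited -0.84), Gla (-0.11, deposited -0.89), Tfe3 (-0.029, deposited -0.82), Map1lc3a (-0.033, deposited -0.82), Becn1 (-0.12, deposited -0.89), Atg7 (0.033, deposited -0.73) and Wipi1 (-0.14, deposited -0.89) did not pass on the scaled values and fell on the deposited ones.

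Of the wider set, 49 of 110 tested genes rose and 25 fell with FAOi, against 30.9% and 31.2% of all genes. On the deposited scale 6 rose and 55 fell, beside 3524 and 13053 of all 25421 genes. Cd68 went from 6.17 ± 0.0204 to 23.7 ± 0.0251 FPKM (1.92, deposited 1.13), the peptidase gene Dpp7 from 10.96 ± 0.314 to 32.2 ± 1.09 (1.55, deposited 0.76), Gaa from 16.3 ± 1.05 to 46.9 ± 1.18 (1.52, deposited 0.73) and the kinase gene Ulk2 from 0.8804 ± 0.0765 to 2.66 ± 0.0698 (1.496, deposited 0.75). These 4 rose on both scales. The mitophagy receptor gene Bnip3 fell from 8.73 ± 0.619 to 2.63 ± 0.0181 (-1.69, deposited -2.47), with Ctsc (-1.41, deposited -2.19), Manba (-1.02, deposited -1.79) and Fundc1 (-0.88, deposited -1.66). Summed macrophage markers were 6.94 and 6.69 in the water and 24.4 and 24.3 in the FAOi libraries, with Csf1r at 0.426 and 0.3702 FPKM in the water and 0.491 and 0.569 in the FAOi libraries, and trophoblast markers were 15.1 and 15.5 in the water and 44.6 and 46.4 in the FAOi libraries. All 8 naive ESC markers fell on both scales, and their sum was 736 and 804 in the water and 445 and 424 in the FAOi libraries. Their part in the lysosomal result was not tested.

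With MYCi, Gpnmb and Hexa rose and 3 of 4 ATG8 genes fell on both scales. Of the 36, 16 rose (44.4%) and 8 fell (22.2%), against 25.4% and 28.4% of all genes, and 22.5% and 42.2% of those with at least 1 FPKM. The medians were 0.21 for members and 0.029 for all genes. On the deposited scale 2 rose, Gpnmb and Hexa, and 25 fell, beside 1921 and 14055 of all 24335 genes. Between the scales, 5 members changed sides between called higher and called lower.

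Gpnmb stood at 0.259 and 0.259 FPKM in the DMSO and 13.8 and 14.03 in the MYCi libraries (log2 fold change of 5.29, SE 0.070, adjusted p = 0.000882, deposited 4.62, past the threshold too). Its means differed 53.7-fold. The DMSO libraries had 15.9 and 15.9 FPKM of Hexa and the MYCi libraries 36.1 and 35.8 (log2 fold change of 1.17, SE 0.036, adjusted p = 0.00112, deposited 0.41, past the threshold too). Ctsd measured 67.97 and 66.8 FPKM in the MYCi libraries, against 38.4 and 38.1 in the DMSO libraries (log2 fold change of 0.82, SE 0.040, adjusted p = 0.00112, deposited 0.047, not past it). Hexa and Ctsd were higher in both MYCi libraries on the scaled values by more than the spread of either group. Mcoln1 went from 4.84 and 5.15 FPKM with DMSO to 7.95 and 8.24 with MYCi (log2 fold change of 0.69, SE 0.054, adjusted p = 0.00159, deposited -0.072, not past it). Grn stood at 56.6 and 55.9 FPKM in the DMSO and 84.1 and 87.2 in the MYCi libraries (log2 fold change of 0.61, SE 0.045, adjusted p = 0.00148, deposited -0.16, not past it). The other rises on the scaled values were those of Lamp2, Ctsa and Psap, Lamp2 (0.56, deposited -0.20), Ctsa (0.55, deposited -0.22) and Psap (0.45, deposited -0.32), of the pump accessory gene Atp6ap1 (0.46, deposited -0.31) and of Sqstm1 (0.50, deposited -0.27). Flcn (0.35, deposited -0.41), Ctsb (0.25, deposited -0.51), Atp6v0d1 (0.32, deposited -0.44), Atp6v1h (0.32, deposited -0.43) and Ulk1 (0.22, deposited -0.55) were the 5 called higher on the scaled and lower on the deposited values. Mitf was the remaining rise.

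The 8 members that fell with MYCi fell on both scales. The DMSO libraries had 21.1 and 21.9 FPKM of Gabarapl2 and the MYCi libraries 8.79 and 10.1 (log2 fold change of -1.18, SE 0.079, adjusted p = 0.00127, deposited -1.94, past the threshold too). Ctsz measured 10.8 and 11.3 FPKM in the MYCi libraries, against 17.4 and 16.6 in the DMSO libraries (log2 fold change of -0.62, SE 0.050, adjusted p = 0.00165, deposited -1.38, past the threshold too). Atg5 went from 14.8 and 14.5 FPKM with DMSO to 9.78 and 10.3 with MYCi (log2 fold change of -0.54, SE 0.047, adjusted p = 0.00186, deposited -1.302, past the threshold too). All 3 were lower in both MYCi libraries than in either DMSO library. Gla, alpha-galactosidase A, stood at 5.67 and 5.79 FPKM in the DMSO and 3.86 and 4.23 in the MYCi libraries (log2 fold change of -0.49, SE 0.065, adjusted p = 0.00472, deposited -1.25, past the threshold too). Further falls were those of Map1lc3a (-0.49, deposited -1.25), Map1lc3b (-0.30, deposited -1.06) and Gusb (-0.21, deposited -0.96), and Tfeb fell as well. Thus 3 of the 4 ATG8 genes fell, beside 28.4% of all genes and 42.2% of those with at least 1 FPKM. Gabarapl1, the fourth ATG8 gene, had 0.20 (deposited -0.55) and did not pass on the scaled values.

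Of the wider set, 45 of 109 tested genes rose and 31 fell with MYCi, against 25.4% and 28.4% of all genes. As deposited, 2 rose and 78 fell, beside 1921 and 14055 of all 24335 genes. Rises were led by the sugar-degrading enzyme genes Idua (1.32, deposited 0.64) and Sgsh (1.06, deposited 0.38), with Dpp7 (1.13, deposited 0.36) and Scarb2 (1.06, deposited 0.30), and falls by Bnip3 (-1.62, deposited -2.35), Manba (-1.18, deposited -1.93), Ctsf (-1.02, deposited -1.69) and Ctsc (-0.997, deposited -1.76). Bnip3 went from 3.96 ± 0.337 to 1.23 ± 0.158 FPKM and Dpp7 from 8.58 ± 0.639 to 18.9 ± 1.04. Summed macrophage markers were 5.996 and 6.31 in the DMSO and 10.996 and 10.4 in the MYCi libraries, nearly all of it Cd68, and Csf1r stood at 0.415 and 0.379 FPKM in the DMSO and 0.321 and 0.304 in the MYCi libraries. Of the 8 naive ESC markers 7 fell, with sums of 755 and 708 in the DMSO and 535 and 542 in the MYCi libraries, and 4 of 6 tested primitive endoderm markers rose (1 as deposited), with sums of 10.8 and 11.1 in the DMSO and 19.6 and 19.3 in the MYCi libraries. The Y-linked genes Ddx3y (-0.70) and Eif2s3y (-0.62) fell, and Uty (-0.27) did not pass. The part of these markers and Y-linked genes in the lysosomal result was not tested. Of the 14 further V-ATPase genes 3 rose and 0 fell, against 25.4% and 28.4% of all genes, and all 14 fell as deposited.

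The qESC, FAOi and MYCi comparisons share no libraries. On the scaled values 13 of 36 members rose in all 3, against 5.83% of the 20136 genes tested in all 3. They were Flcn, Gpnmb, Lamp2, Mcoln1, Ctsa, Ctsb, Ctsd, Hexa, Grn, Atp6v0d1, Atp6ap1, Sqstm1 and Ulk1. Of the 36, 2 members, Gabarapl2 and Atg5, fell in all 3, a smaller share than the 9.76% of all genes, and neither did so as deposited. On the deposited scale 1 member, Gpnmb, rose in all 3 (1.29% of genes).

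**Figure D2:**
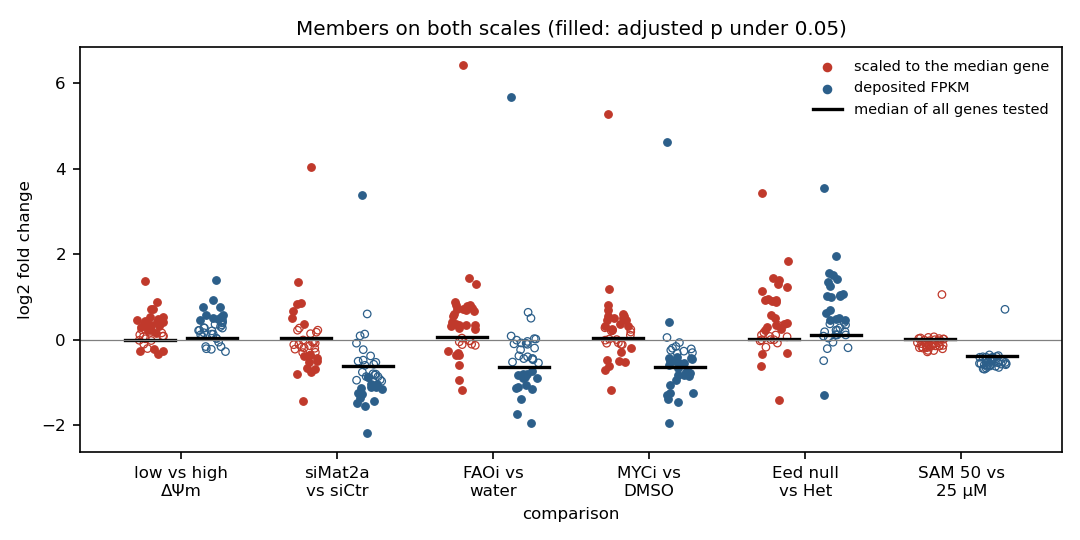
Each point is one of the 36 tested members in a comparison, with its log2 fold change on scaled (red) or deposited (blue) FPKM, filled where the adjusted p is under 0.05. Black lines give the median of all tested genes. In the siMat2a, FAOi and MYCi tables the blue clouds sit below 0 around a black line near -0.66, the red clouds have medians of -0.13, 0.33 and 0.21, and Gpnmb is the high point on both scales.

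Between FAOi and MYCi, effects were compared in a single fit of both tables, with each effect taken against its own vehicle. For 17 of 36 members the difference passed, against 18.7% of all 23717 genes, with the FAOi effect higher for 13 and lower for 4. On the deposited scale 0 members passed by limma, 3 at an unadjusted p under 0.05, so that the differences passed on the scaled values only. Their deposited sizes were similar, at -0.89 for Mitf, 0.77 for Sqstm1, 0.51 for Gusb and -0.62 for Glb1. Mitf had opposite signs, at -0.35 with FAOi and 0.51 with MYCi, a difference of -0.87 (SE 0.072, adjusted p = 0.0016). Sqstm1 rose by 1.29 with FAOi and 0.50 with MYCi, a difference of 0.80 (SE 0.083, adjusted p = 0.00287). Gusb rose with FAOi (0.34) and fell with MYCi (-0.21), a difference of 0.54 (SE 0.11, adjusted p = 0.0171). Glb1 fell with FAOi and stood at -0.0021 with MYCi, a difference of -0.60 (SE 0.085, adjusted p = 0.00652).

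**Figure D3:**
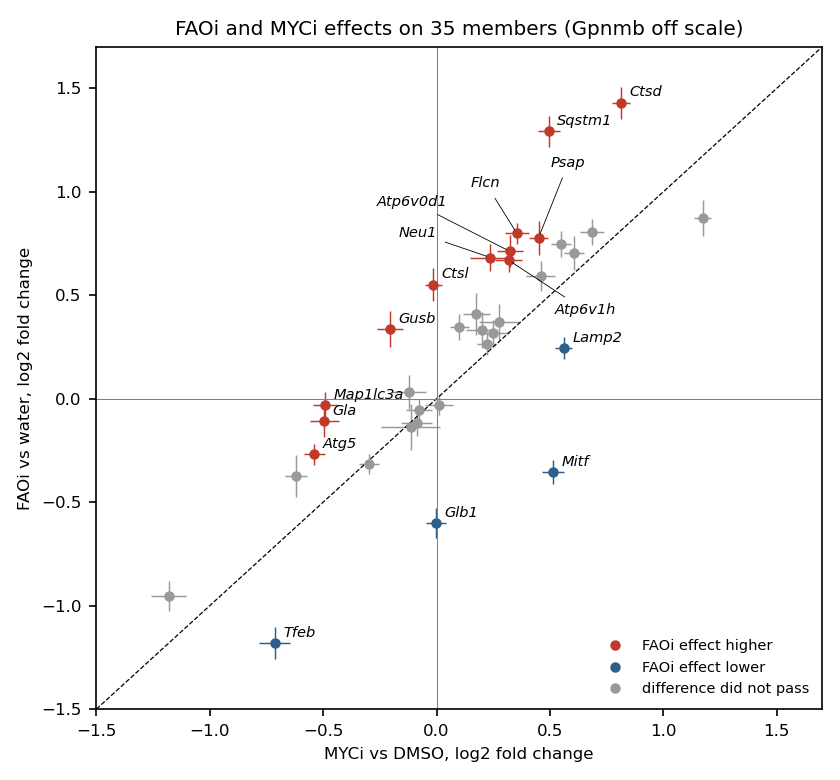
Scaled log2 fold changes of 35 members with MYCi (x axis) and FAOi (y axis), with bars of 1 SE, coloured where the difference passed (red, FAOi effect higher, and blue, FAOi effect lower). The dashed line marks equal effects. Ctsd and Sqstm1 lie above the line and Mitf, Glb1, Tfeb and Lamp2 below it, while Gpnmb, at 5.29 and 6.42, is off the scale.

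With Mat2a depleted, Gpnmb rose on both scales and the hydrolases split, Ctsd and Gusb rising relative to the median gene (not as deposited) and Glb1, Gla and Neu1 falling. Of the 36 members, 7 rose (19.4%) and 10 fell (27.8%), against 23% and 19.8% of all genes, and 18% and 30.4% of those with at least 1 FPKM, so that the share of members called was near the background in both directions. Members had a median of -0.13 and all genes of 0.036. As deposited, 1 rose and 15 fell, beside 3257 and 9186 of all 24938 genes. The fallen members numbered 4 without siCtr replicate 1 or 2 and 16 without siMat2a replicate 1, and the risen ones 11 without siMat2a replicate 1.

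The siCtr libraries had 0.342 and 0.324 FPKM of Gpnmb and the siMat2a libraries 7.57 and 6.503 (log2 fold change of 4.04, SE 0.14, adjusted p = 0.000582, deposited 3.37, past the threshold too). The means differed 21.1-fold. Ctsd measured 116 and 107 FPKM in the siMat2a libraries, against 44.1 and 43.1 in the siCtr libraries (log2 fold change of 1.35, SE 0.087, adjusted p = 0.00153, deposited 0.60, not past it). Gusb, beta-glucuronidase, went from 3.75 and 3.74 FPKM with control siRNA to 7.17 and 6.66 with Mat2a siRNA (log2 fold change of 0.87, SE 0.088, adjusted p = 0.00333, deposited 0.13, not past it). For these genes no siMat2a library came near the siCtr range on the scaled values. Psap stood at 49.3 and 47.7 FPKM in the siCtr and 92.1 and 81.8 in the siMat2a libraries (log2 fold change of 0.84, SE 0.094, adjusted p = 0.0041, deposited 0.086, not past it). The pump genes Atp6v0d1 (0.51, deposited -0.24) and Atp6v1h (0.35, deposited -0.38) and Flcn were the other rises.

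The siCtr libraries had 25.6 and 25.2 FPKM of Glb1 and the siMat2a libraries 9.701 and 8.77 (log2 fold change of -1.45, SE 0.083, adjusted p = 0.00128, deposited -2.197, past the threshold too). Gla measured 4.49 and 3.94 FPKM in the siMat2a libraries, against 7.41 and 7.502 in the siCtr libraries (log2 fold change of -0.81, SE 0.099, adjusted p = 0.00501, deposited -1.55, past the threshold too). Neu1, the lysosomal sialidase, went from 3.97 and 3.91 FPKM with control siRNA to 2.32 and 2.22 with Mat2a siRNA (log2 fold change of -0.77, SE 0.098, adjusted p = 0.0054, deposited -1.496, past the threshold too). GLB1 and NEU1 are known to form a complex with the protein of Ctsa, and Ctsa had -0.12 (deposited -0.87) and did not pass. Lamp2 stood at 22.5 and 24.3 FPKM in the siCtr and 15.4 and 13.6 in the siMat2a libraries (log2 fold change of -0.69, SE 0.097, adjusted p = 0.00693, deposited -1.44, past the threshold too). The siCtr libraries had 1.74 and 2.02 FPKM of Wipi1 and the siMat2a libraries 1.25 and 1.04 (log2 fold change of -0.67, SE 0.16, adjusted p = 0.0263, deposited -1.37, past the threshold too). In these 5 genes both siMat2a libraries were below both siCtr libraries. Cd63 (-0.51, deposited -1.25) and Sqstm1 (-0.37, deposited -1.12) also fell on both scales, and the other falls were the 3 MiT factors.

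Of the wider set, 11 of 109 tested genes rose and 25 fell with siMat2a, against 23% and 19.8% of all genes, with a median of -0.044. As deposited, 0 rose and 40 fell, beside 3257 and 9186 of all 24938 genes. Bnip3 went from 11.4 ± 0.671 to 1.09 ± 0.0877 FPKM (-3.28, deposited -3.996) and Gm2a, which presents gangliosides to hexosaminidase, from 5.16 ± 0.0986 to 1.08 ± 0.207 (-2.17, deposited -2.87), followed by the sulfatase genes Arsa (-1.39, deposited -2.103) and Galns (-1.201, deposited -1.89). The largest rises were those of Laptm4b (1.22, deposited 0.48), Gaa (1.11, deposited 0.36), Aga (0.94, deposited 0.23) and Dpp7 (0.69, deposited -0.057), which did not pass on the deposited scale. Summed macrophage markers were 12.9 and 14.2 in the siCtr and 15.001 and 14.3 in the siMat2a libraries and fibroblast markers 0.915 and 1.02 in the siCtr and 2.56 and 2.29 in the siMat2a libraries. Of the 8 naive ESC markers 4 fell and 1 rose (0 as deposited), with sums of 769 and 748 in the siCtr and 624 and 558 in the siMat2a libraries. The part of these was not tested. Of the 14 further V-ATPase genes 1 rose and 3 fell (0 and 4 as deposited), against 23% and 19.8% of all genes.

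In Eed-null cells hydrolases, cofactors and most ATG8 genes were higher than in Het cells, while Tfe3 and Flcn were lower, and each call kept its direction as deposited. Of the 36 members, 20 rose (55.6%) and 4 fell (11.1%), against 25.3% and 22.5% of all genes, and 25.3% and 31.4% of those with at least 1 FPKM. The median was 0.31 for members and 0.0069 for all genes. As deposited, 18 rose, among them Lamp2 (0.45), and 1 fell, beside 6534 and 3266 of all 27015 genes. Without Het replicate 1 the risen members numbered 12, and without Het replicate 1 or 2 the fallen ones numbered 2.

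Gpnmb measured 4.14 and 3.55 FPKM in the Eed-null libraries, against 0.226 and 0.301 in the Het libraries (log2 fold change of 3.44, SE 0.16, adjusted p = 0.000629, deposited 3.54, past the threshold too). Wipi1 went from 0.872 and 0.912 FPKM with the Het genotype to 3.72 and 3.202 with the null genotype (log2 fold change of 1.84, SE 0.12, adjusted p = 0.000934, deposited 1.95, past the threshold too). Psap, the precursor of the saposins, which help to degrade lipids, stood at 80.9 and 81.6 FPKM in the Het and 220.3 and 223 in the Eed-null libraries (log2 fold change of 1.45, SE 0.066, adjusted p = 0.000598, deposited 1.57, past the threshold too). Psap was the most abundant member in the Eed-null libraries. The Het libraries had 3.49 and 4.23 FPKM of Gabarapl1 and the Eed-null libraries 9.14 and 10.1 (log2 fold change of 1.297, SE 0.12, adjusted p = 0.00192, deposited 1.41, past the threshold too). Both Eed-null libraries lay above both Het libraries for each. Of the 10 hydrolases 9 rose, Neu1 (1.23, deposited 1.35), Ctsb (1.13, deposited 1.25), Gusb (0.94, deposited 1.05), Ctsl (0.94, deposited 1.06), Glb1 (0.91, deposited 1.02), Ctsz (0.52, deposited 0.63), Hexa (0.34, deposited 0.45), Ctsa (0.25, deposited 0.37) and Ctsd (0.23, deposited 0.34), of which Ctsa and Ctsd did not pass on the deposited scale. Gla, at -0.0068, did not pass, and of all genes 25.3% rose on the scaled values.

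Grn (0.37, deposited 0.49) and Cd63 (0.38, deposited 0.49) rose as well. So did Gabarapl2 (0.87, deposited 0.99) and Map1lc3a (0.57, deposited 0.69), and Sqstm1 (0.29, deposited 0.40), the last not past the threshold as deposited. Ulk1 measured 38.8 and 36.1 FPKM in the Eed-null libraries, against 47.3 and 46.9 in the Het libraries (log2 fold change of -0.33, SE 0.065, adjusted p = 0.0147, deposited -0.21, not past it). Map1lc3b went from 6.81 and 6.63 FPKM with the Het genotype to 5.41 and 5.398 with the null genotype (log2 fold change of -0.31, SE 0.065, adjusted p = 0.0178, deposited -0.19, not past it). Flcn and Tfe3 were the other falls. The V-ATPase genes had log2 fold changes from -0.083 to 0.11, with 0 called by limma and 0 at an unadjusted p under 0.05 in either direction. Of the 14 further V-ATPase genes 1 rose and 5 fell, 1 and 0 as deposited, against 25.3% and 22.5% of all genes on the scaled values.

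In the wider set 30 of 111 tested genes rose and 25 fell, shares near the 25.3% and 22.5% of all genes, with a median of -0.0066. As deposited, 31 rose and 5 fell, beside 6534 and 3266 of all 27015 genes. Ctsc went from 1.06 ± 0.0244 to 6.21 ± 0.723 FPKM (2.44, deposited 2.56) and Smpd1, acid sphingomyelinase, from 2.76 ± 0.0816 to 15.3 ± 0.708 (2.43, deposited 2.54), and Gm2a (2.27, deposited 2.38) rose as well. Rragb, an X-linked GTPase that brings mTORC1 to the lysosome, fell from 5.29 ± 0.106 to 0.694 ± 0.02403 (-2.76, deposited -2.65), and Manba (-1.25, deposited -1.14), Tsc2 (-0.73, deposited -0.62) and Wdr45 (-0.73, deposited -0.61) followed. X-linked genes as a whole had a median of -0.014 and autosomal genes of 0.007. The Y-linked genes Uty (-1.16), Kdm5d (-1.004) and Ddx3y (-0.54) fell, and Eif2s3y (-0.18) did not pass. Summed trophoblast markers were 71.3 and 74.6 in the Het and 181 and 218 in the Eed-null libraries, primitive endoderm markers 12.1 and 12.4 in the Het and 42.2 and 39.1 in the Eed-null libraries and fibroblast markers 8.71 and 9.55 in the Het and 8.305 and 8.13 in the Eed-null libraries. Summed macrophage markers were 6.83 and 7.97 in the Het and 7.56 and 8.04 in the Eed-null libraries, with 2 of 4 tested higher and 1 lower, and Csf1r stood at 0.431 and 0.471 FPKM in the Het and 1.95 and 2.19 in the Eed-null libraries. Their part in the lysosomal result was not tested.

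At 50 against 25 µM SAM no member passed by limma, as no gene did (0% higher and 0% lower of 23911 tested). At an unadjusted p under 0.05, 1 member was higher and 2 lower, with 960 and 489 of all genes. The member median was -0.11 and the smallest adjusted p among members 0.742. As deposited, 0 members passed, and 93 genes were higher and 118 lower. Gpnmb stood at 0.217 and 0.268 FPKM at 25 µM and 0.495 and 0.745 at 50 µM, higher by 1.05 on the log2 scale (SE 0.26, adjusted p = 0.742), with no overlap of the 2 groups. Ctsd, at 41.5 and 36.98 and 40.7 and 37.4, overlapped between doses.

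Across the study Gpnmb was the member with the largest rise in each of the first 5 comparisons, on both scales. Ctsd was the other member to rise in all 5 on the scaled values, where 1.32% of 19702 genes did. Its deposited log2 fold changes were 0.77, 0.60, 0.64, 0.047 and 0.34 in the qESC, siMat2a, FAOi, MYCi and Eed comparisons, past the threshold in qESCs only. Gpnmb levels in the 5 control groups ranged from 0.0638 to 0.594 FPKM. Of the 6 melanocyte markers, Tyr and Dct had no group mean above 0.016 FPKM. Mlana stood at 1.17 and 0.721 FPKM in the high-ΔΨm and 3.06 and 3.16 in the low-ΔΨm libraries, at 1.68 and 1.43 FPKM in the siCtr and 6.69 and 7.77 in the siMat2a libraries and at 1.82 and 1.599 FPKM in the water and 6.66 and 5.73 in the FAOi libraries. It also stood at 2.98 and 2.09 FPKM in the DMSO and 4.18 and 4.78 in the MYCi libraries, a rise on the scaled values only, and at 2.17 and 2.25 FPKM in the Het and 1.36 and 1.51 in the Eed-null libraries, where it fell (not as deposited). Pmel, at 3.296 and 4.005 FPKM in the water and 2.29 and 2.63 in the FAOi libraries, fell with FAOi, and it fell with siMat2a and in the Eed-null lines too. Summed melanocyte markers in the Eed table were 4.07 and 3.99 in the Het and 2.63 and 2.58 in the Eed-null libraries, while Gpnmb rose there. Their part in the Gpnmb result was not tested.

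**Figure D4:**
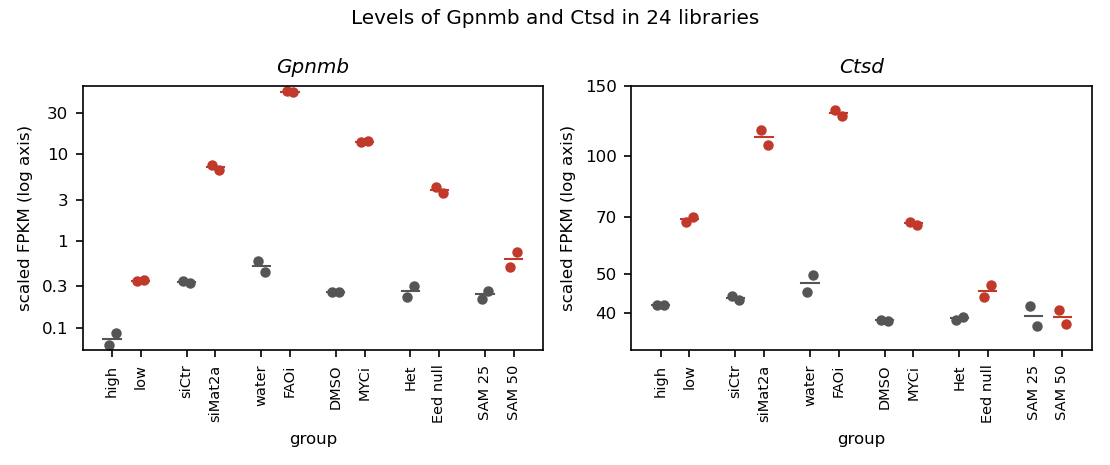
Points are the 24 libraries on a log axis of scaled FPKM, with controls in grey, the group compared with them in red, and lines at the means of 2. Gpnmb lies under 1 FPKM in every control library and reaches 52.9 and 51.7 with FAOi and 13.8 and 14.03 with MYCi, while Ctsd overlaps between groups in the SAM table and in no other.

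The 3 MiT factor genes all fell with siMat2a, on both scales. In no other comparison were all 3 called in the same direction on the scaled values. As deposited, all 3 also fell with FAOi. Tfeb stood at 5.52 and 6.004 FPKM in the high-ΔΨm and 6.43 and 6.53 in the low-ΔΨm libraries (log2 fold change of 0.17, SE 0.055, adjusted p = 0.0794, deposited 0.22). It did not pass there. The siCtr libraries had 9.44 and 8.54 FPKM of Tfeb and the siMat2a libraries 6.71 and 6.63 (log2 fold change of -0.42, SE 0.088, adjusted p = 0.0185, deposited -1.17, past the threshold too). Tfeb measured 2.2001 and 2.17 FPKM in the FAOi libraries, against 4.86 and 5.32 in the water libraries (log2 fold change of -1.18, SE 0.077, adjusted p = 0.000623, deposited -1.95, past the threshold too). With FAOi both libraries lay far below the water libraries. Tfeb went from 6.04 and 5.501 FPKM with DMSO to 3.42 and 3.54 with MYCi (log2 fold change of -0.71, SE 0.068, adjusted p = 0.00219, deposited -1.47, past the threshold too). Tfeb stood at 2.84 and 2.94 FPKM in the Het and 7.45 and 8.18 in the Eed-null libraries (log2 fold change of 1.401, SE 0.082, adjusted p = 0.000821, deposited 1.52, past the threshold too). Tfeb thus fell in 3 comparisons and rose in the Eed-null lines. In the SAM table it stood at 6.101 and 5.59 and 5.37 and 5.17 FPKM at 25 and 50 µM.

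Tfe3, on the X chromosome, changed in the Eed lines above all. The Het libraries had 16.5 and 16.5 FPKM of Tfe3 and the Eed-null libraries 6.58 and 5.76 (log2 fold change of -1.41, SE 0.085, adjusted p = 0.000854, deposited -1.29, past the threshold too). Tfe3 measured 13.01 and 12.2 FPKM in the siMat2a libraries, against 16.3 and 16.8 in the siCtr libraries (log2 fold change of -0.39, SE 0.077, adjusted p = 0.0162, deposited -1.14, past the threshold too). In both tables the groups did not overlap. The other comparisons gave 0.076 in qESCs (6.93 and 6.74 against 7.297 and 7.14 FPKM), -0.029 with FAOi (11.8 and 12.2 against 11.95 and 11.6), 0.011 with MYCi (14.5 and 14.4 against 13.8 and 15.3) and -0.074 between SAM doses (18.2 and 18.2 against 18.04 and 16.5), and did not pass on the scaled values. As deposited, Tfe3 fell with FAOi (-0.82) and MYCi (-0.75).

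Mitf, the factor known for melanocytes, went from 5.17 and 5.19 FPKM with high ΔΨm to 4.38 and 4.14 with low ΔΨm (log2 fold change of -0.28, SE 0.047, adjusted p = 0.0168, deposited -0.23, not past it). Mitf stood at 15.6 and 16.5 FPKM in the siCtr and 12.3 and 10.01 in the siMat2a libraries (log2 fold change of -0.53, SE 0.12, adjusted p = 0.0224, deposited -1.28, past the threshold too). The water libraries had 11.5 and 11.98 FPKM of Mitf and the FAOi libraries 9.41 and 8.89 (log2 fold change of -0.35, SE 0.057, adjusted p = 0.00639, deposited -1.14, past the threshold too). Mitf was thus lower in 3 comparisons. Mitf measured 16.6 and 17.7 FPKM in the MYCi libraries, against 12.02 and 11.9 in the DMSO libraries (log2 fold change of 0.51, SE 0.048, adjusted p = 0.00214, deposited -0.25, not past it). Mitf went from 2.33 and 2.09 FPKM with the Het genotype to 4.72 and 3.83 with the null genotype (log2 fold change of 0.92, SE 0.13, adjusted p = 0.00629, deposited 1.03, past the threshold too). Between SAM doses it stood at 11.4 and 11.4 and 12.2 and 10.9. Mitf rose where Tfeb rose in the Eed-null lines, and with MYCi the scaled values of both went apart.

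Flcn, folliculin, went up in 4 comparisons and down in the Eed-null lines on the scaled values. Flcn stood at 9.47 and 8.79 FPKM in the high-ΔΨm and 12.4 and 11.8 in the low-ΔΨm libraries (log2 fold change of 0.41, SE 0.054, adjusted p = 0.00973, deposited 0.46, past the threshold too). The siCtr libraries had 9.63 and 8.99 FPKM of Flcn and the siMat2a libraries 14.9 and 14.7 (log2 fold change of 0.66, SE 0.077, adjusted p = 0.00453, deposited -0.086, not past it). Flcn measured 15.7 and 14.99 FPKM in the FAOi libraries, against 8.84 and 8.698 in the water libraries (log2 fold change of 0.80, SE 0.051, adjusted p = 0.000601, deposited 0.011, not past it). Only the rise in qESCs passed on both scales. Flcn went from 7.81 and 7.39 FPKM with DMSO to 9.98 and 9.51 with MYCi (log2 fold change of 0.35, SE 0.053, adjusted p = 0.0065, deposited -0.41, past it the other way). Flcn stood at 6.43 and 6.75 FPKM in the Het and 4.06 and 4.51 in the Eed-null libraries (log2 fold change of -0.61, SE 0.084, adjusted p = 0.00554, deposited -0.50, not past it). At 25 and 50 µM SAM it stood at 7.702 and 6.86 and 7.31 and 6.97.

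**Figure D5:**
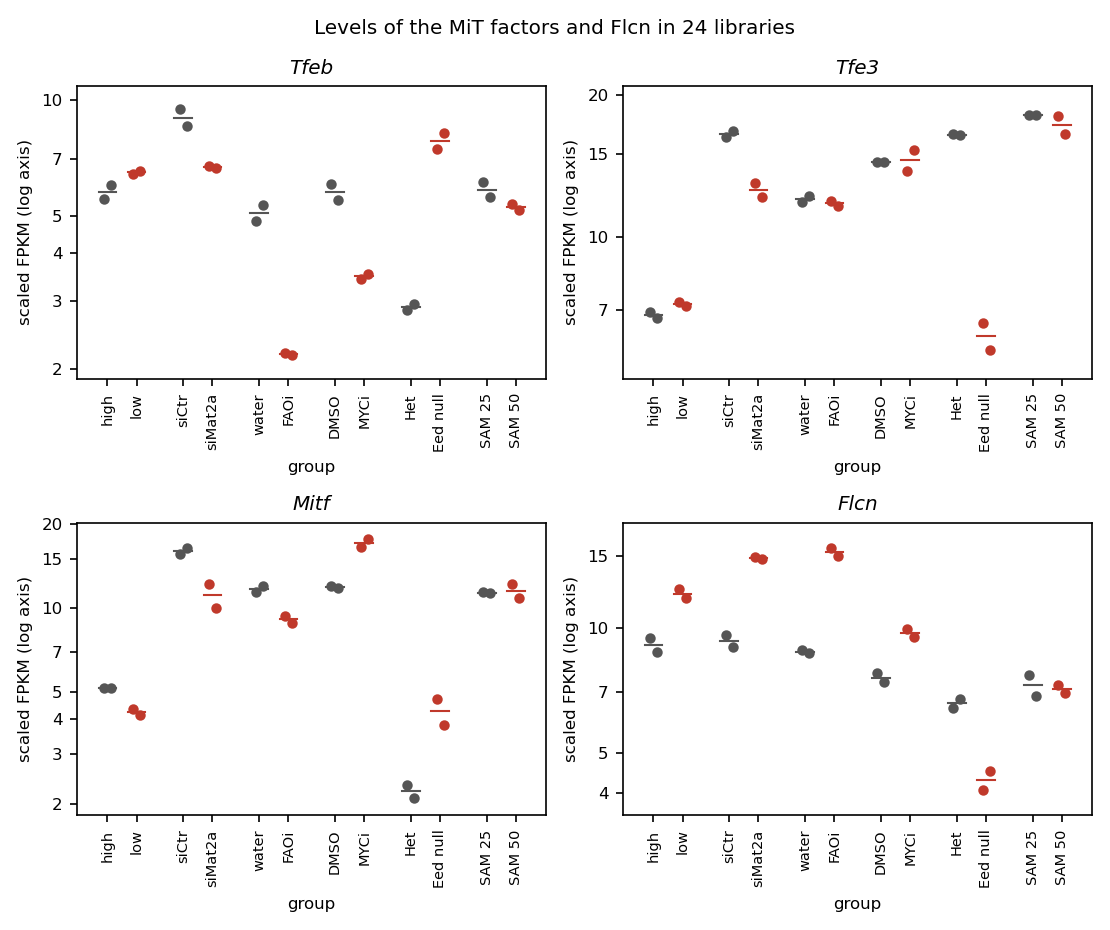
Each panel shows a gene in the 24 libraries on a log axis of scaled FPKM, with controls in grey, the compared group in red, and lines at the means of 2. Tfeb lies below its controls with FAOi (2.2001 and 2.17), and Tfe3 and Flcn lie below theirs in the Eed-null libraries. Flcn lies above its controls in the low-ΔΨm, siMat2a, FAOi and MYCi groups. This direction of Flcn reverses on the deposited scale for siMat2a (-0.086) and MYCi (-0.41).

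Becn1, of the lipid kinase complex that acts early in autophagy, and its partner Uvrag, which helps autophagosomes to mature, were seldom called. Becn1 had scaled log2 fold changes from -0.14 (siMat2a) to 0.10 (Eed-null) and passed in no comparison on the scaled values, though it fell as deposited with siMat2a (-0.87), FAOi (-0.89) and MYCi (-0.83). Uvrag passed with FAOi alone on the scaled values and, as deposited, fell with MYCi (-0.46). Set by promoter, the 11 members whose window holds CACGTG had median log2 fold changes of 0.26 in qESCs, 0.41 with FAOi, 0.10 with MYCi, -0.12 with siMat2a and 0.072 in the Eed-null lines. The 21 without it had 0.23, 0.33, 0.24, -0.19 and 0.38. Among the 6 printed with TCACGTGA, Ctsa, Ctsd, Atp6v0d1 and Mcoln1 rose in all of qESCs, FAOi and MYCi on the scaled values, Atp6v1a in qESCs and FAOi, and Gla rose in qESCs and fell with MYCi. Of all 36 members 13 rose in these 3 comparisons, and of all genes 5.83%. With FAOi and MYCi none of the rises of these 6 genes passed as deposited. With siMat2a Ctsd and Atp6v0d1 rose on the scaled values and Gla fell. In the Eed-null lines only Ctsa and Ctsd of the 6 rose. Gpnmb, whose window holds neither, rose most in each of the 5 comparisons.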

How the data were processed

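Libraries were grouped by the submitters' titles, and each value column belonged to a grouped library. The authors state 2 independent biological replicates per dataset without naming the cultures. Each p-value sets a difference between groups against the spread within groups of these libraries, and what that spread covers is not known. They made rRNA-depleted libraries with ERCC spike-in RNA, aligned the trimmed reads (Trim Galore, cutadapt) to mm10 by TopHat2 2.1.1, dropped duplicates (SAMtools 1.9) and used featureCounts on Ensembl genes, NONCODE transcripts and HOMER 4.10 repeats, without strand and with fractions for shared fragments. A gene can thus not be told from an antisense partner, and fragments of near-identical copies are divided. The deposited values are FPKM, calculated by the authors with edgeR, 1 table per experiment. Fractional counting leaves no whole reads, so no count test was run.

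Gene symbols were matched to the GENCODE annotation of GRCm38 (55144 of 55385 Ensembl genes). Depth was estimated from the steps between low FPKM values, for description only. Within each table, values were scaled by median of ratios over tested genes (at least 0.1 FPKM in at least 2 libraries), and log2(FPKM + 0.1), which understates changes of weakly expressed genes, was tested by limma 3.58.1 under R 4.3.3, its variance trend on, with Benjamini-Hochberg adjustment over all genes and a threshold of 0.05. The difference between FAOi and MYCi effects was a contrast in a fit of their 8 libraries. Groups and levels were not tested across tables, which were normalized separately. The code was tested on simulated data with 200 changed genes.

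Members and lists were chosen with earlier results of these data known. Every member that passes is named. Values per library are given for Tfeb, Tfe3, Mitf and Flcn and, in each comparison, for up to 5 risen and 5 fallen members with the largest folds and at least 1 FPKM in one group. Of the wider set, up to 4 genes per direction are named, and 1 result is not reported here. Gpnmb in sorted and SAM cells, the Y-linked genes, Csf1r, Mlana and Pmel were chosen after their values were seen. Alternatives were the deposited FPKM, scaling by ERCC rows (sorted table only), a pseudocount of 1, no filter, leaving out each library, and a replicate block. Protein sequences were not used here.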

Additional observations from a re-analysis of the deposited data

Results flagged for a closer look

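The FAOi and MYCi effects, each taken against its own vehicle, differed by the test of the difference itself for 17 of the 36 members tested on scaled values, and for 0 on the deposited values. With the larger rise, or smaller fall, under FAOi were Gpnmb (a difference in log2 fold change of 1.13), Sqstm1 (0.80), Ctsd (0.62), Ctsl (0.57), Gusb (0.54), Map1lc3a (0.46), Neu1 (0.45), Flcn (0.45), Atp6v0d1 (0.39), Gla (0.38), Atp6v1h (0.35), Psap (0.33) and Atg5 (0.27). The FAOi effect lay below the MYCi effect for Mitf (-0.87), Glb1 (-0.60), Tfeb (-0.47) and Lamp2 (-0.32). The vehicles, water and DMSO, differ too, and agent and table cannot be told apart from any other difference between the 2 experiments. Groups of 2 are too small to test for a library that stands apart.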

How the results depend on the processing

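Scaling decided most counts. On deposited FPKM, 10 members rose and 0 fell in qESCs, 1 rose with siMat2a, 1 rose and 14 fell with FAOi, 2 rose and 25 fell with MYCi, 1 fell in the Eed-null lines, and 0 differed between the FAOi and MYCi effects. Of all genes, 13053 of 25421 fell with FAOi and 14055 of 24335 with MYCi as deposited. With ERCC scaling, 4 members rose and 0 fell in qESCs. With no filter on low values 14 rose with FAOi, and the cause was not tested. Leaving out 1 library at a time gave 9 to 18 risen and 0 to 1 fallen members in qESCs, 5 to 11 and 4 to 16 with siMat2a, 17 to 22 and 4 to 7 with FAOi, and 12 to 23 and 2 to 5 in the Eed-null lines. A pseudocount of 1 kept every count within 1.5 times.

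Among members past the threshold on at least 1 scale, the log2 fold changes that turned sign on deposited FPKM were, with siMat2a, Flcn (-0.086), Atp6v0d1 (-0.24) and Atp6v1h (-0.38), with FAOi, Lamp1 (-0.38), Lamp2 (-0.55), Ctsa (-0.045), Ctsb (-0.47), Ctsl (-0.24), Gusb (-0.45), Neu1 (-0.10), Psap (-0.015), Grn (-0.089), Atp6v0d1 (-0.081), Atp6v1a (-0.45), Atp6v1h (-0.11), Atp6ap1 (-0.20), Gabarapl1 (-0.45), Ulk1 (-0.53), Atg7 (-0.73) and Uvrag (-0.41), and with MYCi, Tfe3 (-0.75), Mitf (-0.25), Flcn (-0.41), Lamp1 (-0.59), Lamp2 (-0.20), Mcoln1 (-0.072), Ctsa (-0.22), Ctsb (-0.51), Neu1 (-0.51), Psap (-0.32), Grn (-0.16), Atp6v0d1 (-0.44), Atp6v1a (-0.67), Atp6v1h (-0.43), Atp6ap1 (-0.31), Sqstm1 (-0.27), Gabarapl1 (-0.55), Ulk1 (-0.55) and Uvrag (-0.46). Members past the threshold on neither scale turned sign in 2 cases in qESCs, 5 with siMat2a, 5 in the Eed-null lines and 7 between SAM doses. Each is the scaled value moved by about the shift of the median gene.

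With the replicate number as a replicate block, 8 members differed between the FAOi and MYCi effects, all of them among the 17 without it (Mitf, Flcn, Gpnmb, Ctsd, Ctsl, Glb1, Gusb and Sqstm1), and no other count of members moved by over 1.5 times. No source used here says that a number marks a shared culture, and deviations of same-numbered libraries correlated across genes at -0.090 to 0.065, and at 0.24 in the SAM table, so that the numbers were not taken as pairs. Depth limits Gpnmb in high-ΔΨm cells (about 25 and 28 fragments) and Atp6v0d2 throughout.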
